A study of Homo sapiens with 8 samples.

Results

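Hyaluronan and versican genes, 8 in number, were followed in HS578T cells, an established human breast cancer line: HAS2, HAS3, CEMIP, HYAL2, CD44, VCAN, TNFAIP6 and PTX3. They were taken by gene name from a table of 60708 genes, and all 8 passed the low-count filter that kept 16008 genes for testing. The cells received 25 µg of a plasmid for green fluorescent protein (Mock) or for the transcription factor HSF2 (HSF2oe). The next treatment began 24 h later and lasted 24 h, with assay medium alone (control) or with 10 ng/ml of the cytokine TGF-β1 (TGF-β). Each of the 4 groups had 2 libraries, which the design text calls biological replicates. All groups therefore share transfection and the same medium, HSF2 transcripts from the plasmid are counted with the cell's own, and every group comes from 1 line. A treatment field in the labels gives DMSO for the Mock libraries and TGF-β1 for the HSF2oe ones whatever their titles say. That contradicts the series' design text, so the titles set the groups.

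Hyaluronan is a long unsulfated sugar chain that HAS enzymes spin out at the plasma membrane and that binds much water in the matrix. Versican, a large chondroitin sulfate proteoglycan encoded by VCAN, holds on to hyaluronan, while TNFAIP6 and PTX3 proteins help crosslink the chains into cables and coats. Cells sense hyaluronan through receptors such as CD44, and CEMIP and the hyaluronidases cut it. In breast tumours, a matrix rich in hyaluronan and versican is a known feature of the stroma and of invasive cells.

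Total counts were 17427645 to 34336107 per library. HSF2 was at 5.4 to 8.36 TMM-normalised CPM (counts scaled to a common library size) in the Mock libraries and at 489 to 937 CPM in the HSF2oe libraries. SMAD7, a textbook TGF-β target, rose with TGF-β by 0.87 ± 0.14 on the log2 scale in Mock and by 0.48 ± 0.14 in HSF2oe cells (± standard error throughout), the second call being lost under 10 of 16 alternatives. Without TGF-β, SMAD7 was already higher in HSF2oe than in Mock cells, by 0.71 ± 0.14 (adjusted p = 0.00613, edgeR quasi-likelihood test, Benjamini-Hochberg adjusted). Its means in control and TGF-β were 31.7 and 57.9 CPM in Mock, and 52.0 and 72.3 CPM in HSF2oe cells. The difference of the rises was -0.39 ± 0.20 (adjusted p = 0.836, same edgeR test). The labels call the cells epithelial, yet CDH1 lay at 0.256 to 1.17 CPM, EPCAM at 0.128 CPM or less and KRT19 at 0.193 CPM or less. The keratins KRT18 (177 to 275 CPM) and KRT8 (15.6 to 26.1 CPM) were present, beside the mesenchymal markers VIM at 3180 to 4180 CPM and COL1A1 at 9040 to 36200 CPM. Of the endothelial markers CDH5 reached at most 0.246 CPM and VWF 0.403 CPM, while PECAM1 was at 1.37 to 4.24 CPM. Of the macrophage and leukocyte markers CD3E was at 0, LYZ at 0.0321 CPM or less and PTPRC at 0.681 CPM or less, while CD14 was at 0.591 to 3.63 CPM and CD68 at 0.853 to 1.7 CPM. Of the luminal breast markers PGR was at 0 and ESR1 at 0.197 CPM or less, while GATA3 was at 7.58 to 15.2 CPM and FOXA1 at 1.95 to 3.2 CPM. The summed level of the 6 mesenchymal markers, FN1 and COL1A1 foremost, was 43980 and 50800 CPM in Mock control and 87600 and 95560 CPM in Mock TGF-β libraries. It was 40180 and 38860 CPM in HSF2oe control and 65900 and 60800 CPM in HSF2oe TGF-β libraries. This sum was higher in the TGF-β libraries of both cell states, and lower in HSF2oe than in Mock libraries of the same treatment. Of its 6 genes, 4 rose and 1 fell with TGF-β in Mock cells, and 3 rose and 1 fell in HSF2oe cells. With HSF2oe 0 rose and 1 fell without TGF-β, and 0 rose and 2 fell with it. The luminal breast sum was 9.63 to 10.89 CPM in Mock and 15.26 to 18.37 CPM in HSF2oe libraries. The epithelial sum was 264.6 to 296.5 CPM in Mock and 195.8 to 234.8 CPM in HSF2oe libraries. Both sums separated by HSF2oe, with GATA3 and KRT18 foremost in them. Of 4 epithelial markers tested, 0 passed for HSF2oe without TGF-β and 2 fell with it. Of 2 luminal markers tested, 1 rose without and 1 with TGF-β. The endothelial sum was lower with TGF-β, at 1.823 and 2.952 CPM against 3.148 and 3.944 CPM in Mock, and at 1.743 and 1.535 CPM against 4.463 and 3.224 CPM in HSF2oe cells. So was the macrophage and leukocyte sum, at 3.842 and 3.346 CPM against 5.621 and 4.17 CPM in Mock, and at 2.179 and 1.663 CPM against 3.211 and 3.752 CPM in HSF2oe cells. This last sum was also lower in HSF2oe than in Mock libraries of the same treatment, the endothelial sum only in TGF-β. Of 3 leukocyte markers tested, 1 fell with TGF-β in HSF2oe cells and 2 fell with HSF2oe in TGF-β. The 1 endothelial marker tested fell with TGF-β in HSF2oe cells. No other call was made in these 2 sets. The part of these markers in the results below was not tested. In bulk libraries of this kind, fewer cells of a type and less RNA per cell cannot be told apart.

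To show the DNA in front of genes that moved, 4 promoters are printed: TNFAIP6 and VCAN, which both rose with TGF-β, and CEMIP and PTX3, which moved in opposite directions in the 3 comparisons in which both passed. The letters come from RefSeq (GRCh38.p14) and run 5′ to 3′ from 250 bases before the RefSeq start up to the first base of the gene in either RefSeq or the count table's annotation. Capitals mark matches to the motifs described after them.
TNFAIP6, chr2:151357342-151357591, plus strand: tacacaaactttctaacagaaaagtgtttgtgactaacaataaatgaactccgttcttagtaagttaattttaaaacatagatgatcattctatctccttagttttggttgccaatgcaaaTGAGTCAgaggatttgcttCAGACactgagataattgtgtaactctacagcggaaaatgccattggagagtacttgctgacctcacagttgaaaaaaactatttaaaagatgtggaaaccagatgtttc
VCAN, chr5:83471494-83471617, plus strand: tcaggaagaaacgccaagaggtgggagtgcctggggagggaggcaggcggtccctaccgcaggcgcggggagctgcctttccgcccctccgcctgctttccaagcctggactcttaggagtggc
CEMIP, chr15:80779120-80779342, plus strand: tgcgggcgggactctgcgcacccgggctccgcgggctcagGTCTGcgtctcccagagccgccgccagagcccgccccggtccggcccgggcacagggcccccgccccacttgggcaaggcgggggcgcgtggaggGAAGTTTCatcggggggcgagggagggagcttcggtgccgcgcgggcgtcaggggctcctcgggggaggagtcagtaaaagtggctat
PTX3, chr3:157436600-157436849, plus strand: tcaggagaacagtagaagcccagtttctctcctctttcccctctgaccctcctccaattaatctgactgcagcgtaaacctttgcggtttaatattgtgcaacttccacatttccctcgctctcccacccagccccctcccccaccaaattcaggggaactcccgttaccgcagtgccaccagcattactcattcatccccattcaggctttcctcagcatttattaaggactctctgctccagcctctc
Short motifs of 3 kinds were searched in the 250 bases before the RefSeq start on both strands: a heat shock element pair (GAANNTTC or TTCNNGAA), a SMAD box (CAGAC or its complement GTCTG) and an AP-1 site (TGANTCA). Of the 8 genes, 7 had an entry. HAS2 was not searched. TNFAIP6 held 1 AP-1 match at positions -129 to -123 and 1 SMAD box at -110 to -106, counted back from the start. CEMIP held 1 heat shock pair at -115 to -108 and 1 SMAD box at -210 to -206. No match to these letters lay in the windows of HAS3, HYAL2, CD44, VCAN or PTX3. By the annotation used for counting, the RefSeq starts of HAS3 and CD44 lay 1887 and 289 bases inside the gene. Their windows were thus wholly within the gene, and the DNA before its first base was not searched. Of the windows of VCAN, HYAL2 and CEMIP, 126, 37 and 27 bases lay within the gene. Matches of these kinds are common: of 35116 promoter windows of the same 250 bases, 11.6% held the heat shock pair, 38% the SMAD box and 6.57% the AP-1 site.

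The share of all tested genes that passed a 2-sided test at an adjusted p under 0.05 was 13.8% for TGF-β in Mock cells, 8.26% for TGF-β in HSF2oe cells, 12.1% for HSF2oe over Mock without TGF-β and 21.5% for HSF2oe over Mock with TGF-β. By direction, 7.32% of all tested genes rose and 6.5% fell with TGF-β in Mock cells, 4.45% and 3.82% in HSF2oe cells. With HSF2oe 4.88% rose and 7.22% fell without TGF-β, and 9.6% and 11.9% with it. Beside these shares, 4 of the 8 genes passed for TGF-β in Mock cells, with rises of VCAN, TNFAIP6 and CEMIP and a fall of PTX3. For TGF-β in HSF2oe cells 3 of 8 passed, with rises of VCAN and TNFAIP6 and a fall of PTX3. HSF2oe over Mock passed for 4 of 8 without TGF-β, where HAS2, CD44 and PTX3 rose and CEMIP fell. With TGF-β 5 of 8 passed, since VCAN fell as well. The count without TGF-β was 2 when Mock control 2 or HSF2oe control 1 was left out, the count with TGF-β was 3 without Mock TGF-β 2 or HSF2oe TGF-β 1, and the count for TGF-β in HSF2oe cells was 2 without HSF2oe control 1 or HSF2oe TGF-β 2. The median log2 fold change of the 8 genes was 0.35, 0.02, 0.24 and 0.00 in these comparisons, in the same order, against -0.0092 to -0.0023 over all tested genes. By library values alone, the compared groups did not overlap for 6, 5, 5 and 6 of the 8 genes, in the same order, and for 52.7%, 49.8%, 57.4% and 59.9% of all tested genes. With 2 libraries a group such a separation is thus frequent. Scaled by library totals alone, without TMM factors, 608 genes rose and 3885 fell with TGF-β in Mock cells, in place of 1172 and 1040. The same change gave 452 rises and 1593 falls with TGF-β in HSF2oe cells in place of 712 and 611. For HSF2oe over Mock it gave 1432 and 807 in place of 781 and 1156 without TGF-β, and 3526 and 1073 in place of 1537 and 1912 with it. TMM factors were 0.857 and 0.882 in Mock TGF-β libraries and 1.03 and 1.06 in Mock control libraries. They were 0.976 and 1.01 in HSF2oe TGF-β and 1.113 and 1.109 in HSF2oe control libraries. The scaling thus moved with the treatment and with the plasmid.

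**Figure D1:**
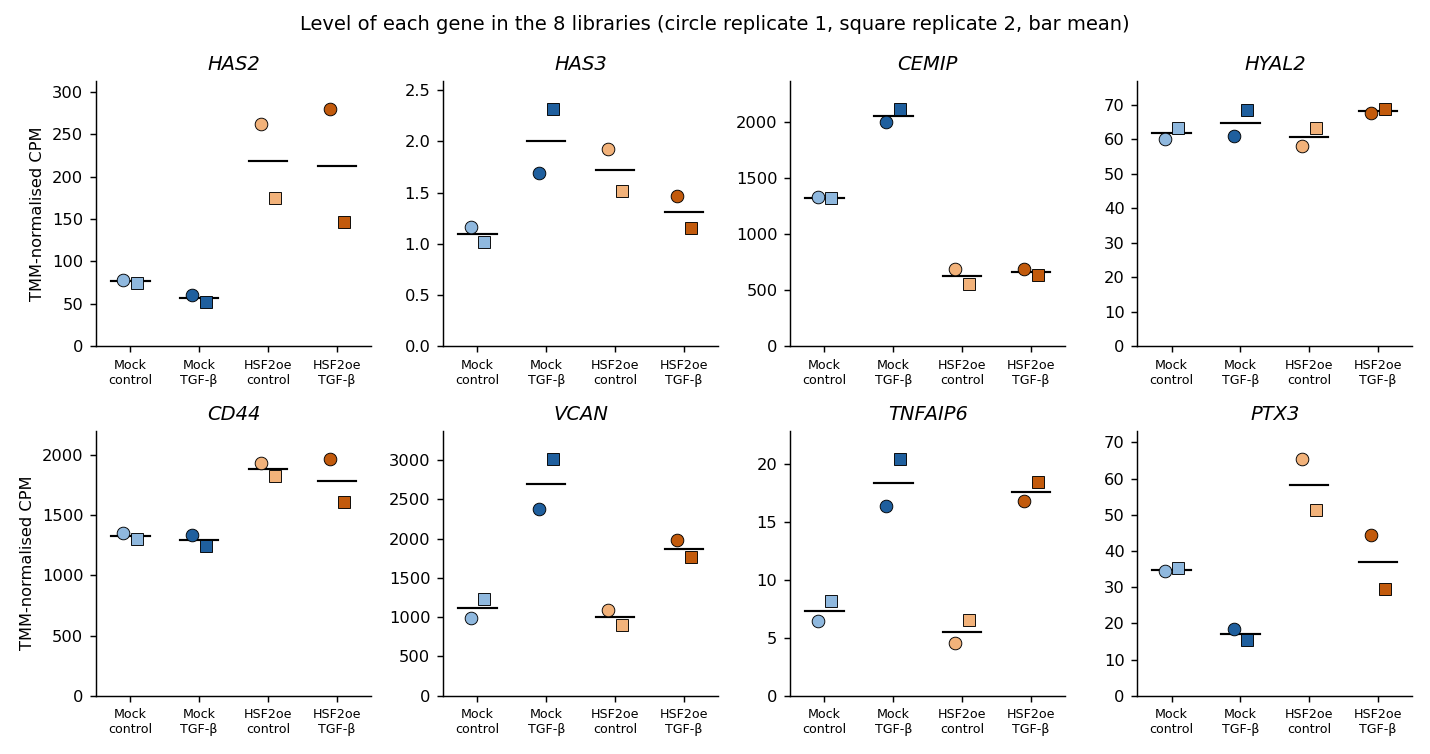
TMM-normalised CPM of each of the 8 genes (vertical axis, linear from 0, own scale per gene) in the 4 groups; the circle is replicate 1, the square replicate 2 and the bar the mean. HAS2, CD44 and PTX3 are higher in HSF2oe than in Mock libraries of the same treatment, CEMIP is lower, and VCAN and TNFAIP6 are higher with TGF-β.

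HAS2, the main hyaluronan synthase of mesenchymal cells (ENSG00000170961.7, chromosome 8, 121612116 to 121641440, minus strand, GRCh38), had the highest level per length of the synthases in every group. Its level was 78.5 and 73.9 CPM in Mock control, 59.8 and 52.5 CPM in Mock TGF-β libraries, 262 and 175 CPM in HSF2oe control and 279 and 146 CPM in HSF2oe TGF-β (replicates 1 and 2). Every HSF2oe library lay above every Mock library, and the HSF2oe replicates lay far apart from each other. HAS2 rose with HSF2oe by 1.52 ± 0.24 on the log2 scale without TGF-β, a fold of 2.87, and by 1.93 ± 0.25 with it, a fold of 3.80 (adjusted p = 0.00193 and 0.000249, edgeR quasi-likelihood test, Benjamini-Hochberg adjusted). Without single libraries the first value ran from 1.201 to 1.788 and the second from 1.40 to 2.32, and both passed in each of these fits. In both HSF2oe groups replicate 1, which had more HSF2 (937 against 616 and 780.3 against 489 CPM), also had more HAS2, CD44 and PTX3. CEMIP, VCAN and HAS3 were also higher in the same libraries, while HYAL2 and TNFAIP6 were lower. The part of the HSF2 level in these differences was not tested.

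TGF-β changed HAS2 by -0.44 ± 0.24 in Mock cells, with a 95% interval of -0.96 to 0.08, and by -0.04 ± 0.23 in HSF2oe cells, with an interval of -0.54 to 0.47 (adjusted p = 0.282 and 0.960, edgeR quasi-likelihood test, Benjamini-Hochberg adjusted). The Mock groups did not overlap, while the HSF2oe groups did. The Mock value passed under 4 other settings: scaled by totals alone (-0.70, adjusted p = 0.0295), without the low-count filter (adjusted p = 0.00108), with a replicate block (adjusted p = 0.0241) and fitted on the 4 Mock libraries alone (adjusted p = 0.0193, edgeR in each). Of the exonic bases of HAS2, 5.92% also belong to its antisense gene HAS2-AS1, and counting used no strand option. HAS2-AS1 itself had 42 to 136 counts per library and passed in none of the comparisons.

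HAS3, a synthase with a distinct expression pattern (ENSG00000103044.11, chromosome 16, 69105653 to 69118719, plus strand), was nearly silent, with 26 to 60 counts per library. The levels were 1.16 and 1.02 CPM in Mock control, 1.69 and 2.31 CPM in Mock TGF-β libraries, 1.93 and 1.52 CPM in HSF2oe control and 1.46 and 1.15 CPM in HSF2oe TGF-β. Mock control was lowest in both replicates but for the second HSF2oe TGF-β library, which lay between them. TGF-β changed HAS3 by 0.89 ± 0.34 in Mock and by -0.39 ± 0.32 in HSF2oe cells, and HSF2oe changed it by 0.66 ± 0.33 without and -0.62 ± 0.34 with TGF-β. None of the 4 passed (adjusted p = 0.111, 0.585, 0.214 and 0.219, edgeR quasi-likelihood test, Benjamini-Hochberg adjusted). HAS1 had at most 1 count in any library. HAS3 shares 7.02% of its exonic bases with CHTF8 and DERPC on the other strand.

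CEMIP, a secreted or membrane-bound protein needed for hyaluronan depolymerisation (ENSG00000103888.17, chromosome 15, 80779343 to 80951776, plus strand), had the smallest p of the 8 genes for HSF2oe over Mock. It was at 1330 and 1321 CPM in Mock control, 2001 and 2113 CPM in Mock TGF-β libraries, 692 and 553.5 CPM in HSF2oe control and 685 and 630.3 CPM in HSF2oe TGF-β. The 4 HSF2oe libraries all lay below the 4 Mock libraries, and in Mock cells both TGF-β libraries lay above both controls. CEMIP fell with HSF2oe by 1.09 ± 0.12 without TGF-β and by 1.65 ± 0.12 with it (adjusted p = 0.000334 and 8.38e-06, edgeR quasi-likelihood test, Benjamini-Hochberg adjusted). These were the 19th and 7th smallest p of 16008 genes. TGF-β raised CEMIP by 0.63 ± 0.12 in Mock cells (adjusted p = 0.00254, same edgeR test), or by 0.37 when scaled by library totals alone. In HSF2oe cells the TGF-β difference was 0.08 ± 0.12, with a 95% interval of -0.18 to 0.33 (adjusted p = 0.790, same edgeR test).

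HYAL2, a hyaluronidase anchored at the cell surface (ENSG00000068001.14, chromosome 3, 50317790 to 50322782, minus strand), varied least between libraries of the 8. Its level was 60.1 and 63.2 CPM in Mock control, 60.9 and 68.5 CPM in Mock TGF-β libraries, 58.1 and 63.1 CPM in HSF2oe control and 67.5 and 68.6 CPM in HSF2oe TGF-β. The groups overlapped in every comparison but TGF-β in HSF2oe cells. No fold change passed: TGF-β gave 0.07 ± 0.10 in Mock and 0.17 ± 0.10 in HSF2oe cells, and HSF2oe gave -0.03 ± 0.10 without and 0.07 ± 0.10 with TGF-β. HYAL2 shares 11.5% of its exonic bases with TUSC2 on the same strand, the largest share among the 8 genes.

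CD44, the main hyaluronan receptor of many cells (ENSG00000026508.20, chromosome 11, 35138882 to 35232402, plus strand), was at 1356 and 1303 CPM in Mock control and 1339 and 1244 CPM in Mock TGF-β. In HSF2oe control it was at 1934 and 1828 CPM and in HSF2oe TGF-β at 1966 and 1610.4 CPM. Every HSF2oe library lay above every Mock library. CD44 rose with HSF2oe by 0.50 ± 0.12 without TGF-β and by 0.47 ± 0.12 with it (adjusted p = 0.0147 and 0.0121, edgeR quasi-likelihood test, Benjamini-Hochberg adjusted). The first call was lost without Mock control 2 (0.47, adjusted p = 0.117) or HSF2oe control 1 (0.46, adjusted p = 0.115, same edgeR test). The second was lost without Mock TGF-β 2 (0.42, adjusted p = 0.112) or HSF2oe TGF-β 1 (0.34, adjusted p = 0.109, same edgeR test). TGF-β differed by -0.04 ± 0.12 in Mock and by -0.07 ± 0.12 in HSF2oe cells, with 95% intervals of -0.29 to 0.21 and -0.32 to 0.18. Gene counts add up all splice forms of CD44.

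VCAN, the versican gene (ENSG00000038427.16, chromosome 5, 83471618 to 83582303, plus strand), followed TGF-β in both cell states. Its level was 988 and 1236 CPM in Mock control, 2377 and 3010.3 CPM in Mock TGF-β libraries, 1095 and 896 CPM in HSF2oe control and 1979 and 1759 CPM in HSF2oe TGF-β. All 4 TGF-β libraries lay above all 4 control libraries, and the Mock TGF-β libraries were the highest. VCAN rose with TGF-β by 1.28 ± 0.15 in Mock and by 0.91 ± 0.15 in HSF2oe cells (adjusted p = 9.48e-05 and 0.00186, edgeR quasi-likelihood test, Benjamini-Hochberg adjusted). HSF2oe over Mock gave -0.16 ± 0.15 without TGF-β, where the groups overlapped, and -0.53 ± 0.15 with TGF-β, where VCAN fell (adjusted p = 0.531 and 0.0234, same edgeR test). The fall with TGF-β was lost without Mock TGF-β 2 (-0.35, adjusted p = 0.229), HSF2oe TGF-β 1 (-0.60, adjusted p = 0.0515) or HSF2oe TGF-β 2 (-0.44, adjusted p = 0.113, same edgeR test). It was also lost when scaled by library totals alone (-0.33, adjusted p = 0.0819, same edgeR test), a scaling that moved the median of all genes by 0.19 in this comparison. Relative to that median VCAN was at -0.52.

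TNFAIP6, whose protein moves heavy chains of inter-alpha-inhibitor onto hyaluronan (ENSG00000123610.5, chromosome 2, 151357592 to 151380046, plus strand), also followed TGF-β. It was at 6.45 and 8.17 CPM in Mock control, 16.3 and 20.4 CPM in Mock TGF-β libraries, 4.53 and 6.54 CPM in HSF2oe control and 16.8 and 18.4 CPM in HSF2oe TGF-β. The TGF-β libraries of both plasmids overlapped each other and lay above every control library. TNFAIP6 rose with TGF-β by 1.33 ± 0.19 in Mock and by 1.66 ± 0.19 in HSF2oe cells (adjusted p = 0.000325 and 9.11e-05, edgeR quasi-likelihood test, Benjamini-Hochberg adjusted). HSF2oe over Mock gave -0.41 ± 0.19 without and -0.07 ± 0.18 with TGF-β (adjusted p = 0.194 and 0.824, same edgeR test). The inter-alpha-inhibitor genes ITIH1, ITIH2, ITIH3, ITIH4, ITIH5 and AMBP had at most 13 counts in any library.

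PTX3, a long pentraxin that binds TNFAIP6 protein and heavy chains in hyaluronan matrices (ENSG00000163661.4, chromosome 3, 157436850 to 157443633, plus strand), was lower with TGF-β and higher with HSF2oe. It was at 34.5 and 35.2 CPM in Mock control, 18.6 and 15.4 CPM in Mock TGF-β libraries, 65.4 and 51.3 CPM in HSF2oe control and 44.3 and 29.5 CPM in HSF2oe TGF-β. No pair of compared groups overlapped. PTX3 fell with TGF-β by 1.04 ± 0.18 in Mock and by 0.65 ± 0.17 in HSF2oe cells (adjusted p = 0.00151 and 0.0260, edgeR quasi-likelihood test, Benjamini-Hochberg adjusted). It rose with HSF2oe by 0.74 ± 0.17 without TGF-β and by 1.13 ± 0.18 with it (adjusted p = 0.0125 and 0.000950, same edgeR test). The fall in HSF2oe cells was lost without HSF2oe control 1 (-0.46, adjusted p = 0.258) or HSF2oe TGF-β 2 (-0.40, adjusted p = 0.228), and on the 4 HSF2oe libraries alone (adjusted p = 0.0779, same edgeR test). The rise without TGF-β was lost without Mock control 1 (0.73, adjusted p = 0.0529), Mock control 2 (0.76, adjusted p = 0.0805) or HSF2oe control 1 (0.56, adjusted p = 0.152, same edgeR test).

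**Figure D2:**
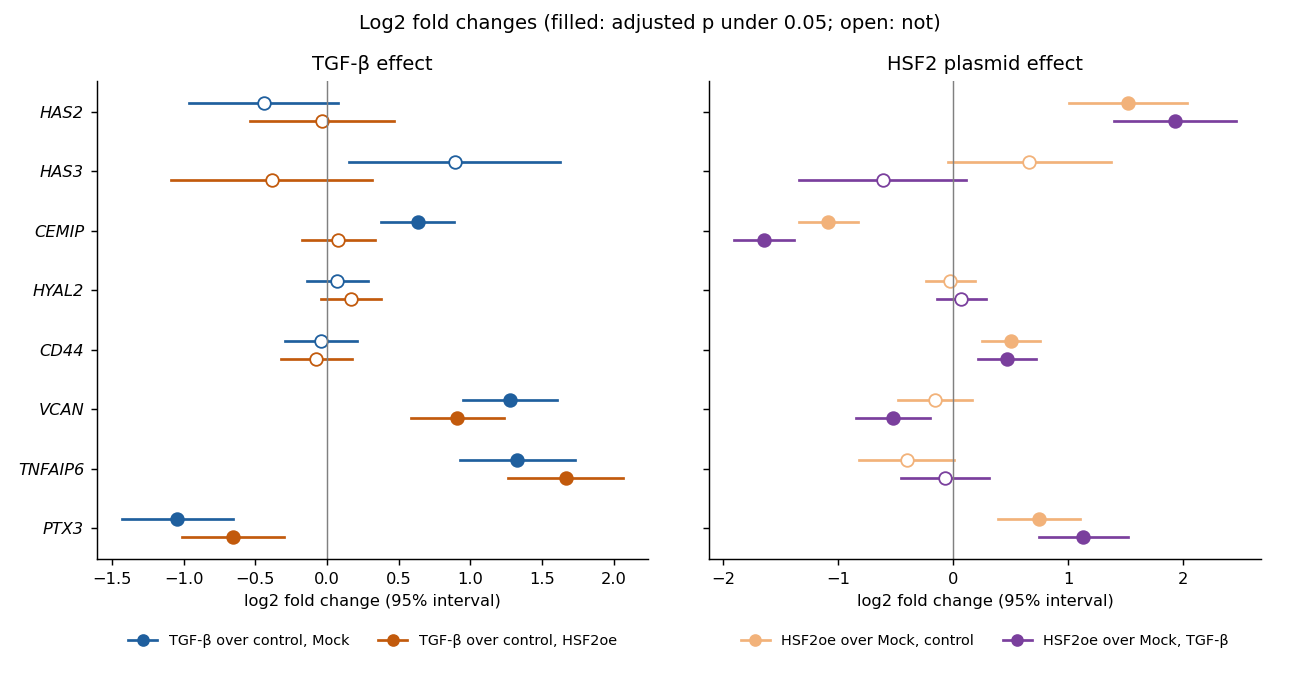
Log2 fold changes with 95% intervals (horizontal axis) of the 8 genes, with the TGF-β effect on the left and the HSF2 plasmid effect on the right; filled points passed an adjusted p of 0.05. VCAN and TNFAIP6 lie to the right and PTX3 to the left for TGF-β, while HAS2, CD44 and PTX3 lie to the right and CEMIP to the left for HSF2oe.

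Whether TGF-β acted differently in HSF2oe and Mock cells was tested by subtracting the Mock effect from the HSF2oe effect, and 0 of the 16008 genes passed. In this edgeR test 977 genes (6.1%) had an unadjusted p under 0.05, the smallest adjusted p was 0.0873, and DESeq2 called 23 genes, none of the 8 among them. CEMIP had the smallest p of the 8, a difference of -0.56 ± 0.17 (HSF2oe minus Mock, unadjusted p = 0.00522, adjusted p = 0.675, edgeR quasi-likelihood test, Benjamini-Hochberg adjusted). HAS3 followed with -1.28 ± 0.47 (unadjusted p = 0.0176, adjusted p = 0.748, same edgeR test), from 26 to 60 counts. For VCAN the 95% interval of the difference ran from -0.82 to 0.09, for PTX3 from -0.14 to 0.91, for TNFAIP6 from -0.23 to 0.90 and for HAS2 from -0.32 to 1.13. The TGF-β and HSF2oe comparisons share their control groups and cannot be read as independent of each other.

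Levels per length of merged exons (RPKM, counts scaled for library size and gene length) put the 8 genes in order. In Mock control the means were 174 RPKM for CEMIP, 133 for CD44, 75.8 for VCAN, 18.51 for PTX3, 17.97 for HAS2, 13.9 for HYAL2, 4.63 for TNFAIP6 and 0.210 for HAS3. Of the neighbours in that order PTX3 and HAS2 overlapped in their libraries, and the other neighbours did not. With Mock TGF-β the order opened with CEMIP (270 RPKM) and VCAN (184), ahead of CD44 (129). In HSF2oe control CD44 led with 188 RPKM, ahead of CEMIP (81.7), VCAN (67.8) and HAS2 (51.5). In HSF2oe TGF-β CD44 (179 RPKM) led VCAN (127), CEMIP (86.3) and HAS2 (50.2). HAS3 was the lowest in all 4 groups, at 0.251 to 0.385 RPKM outside Mock control.

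**Figure D3:**
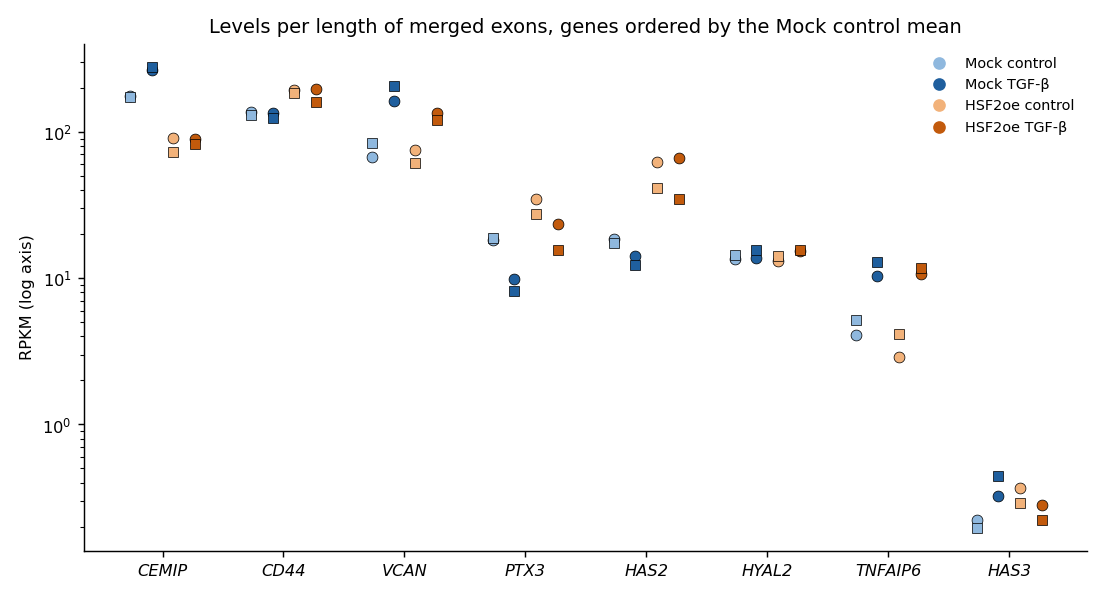
RPKM of the 8 genes in the 8 libraries (vertical log axis), in order of the Mock control mean, with circles for replicate 1 and squares for replicate 2. CEMIP leads in Mock libraries, CD44 leads in HSF2oe libraries, and HAS3 lies far below the rest.

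The wider pathway was read from 8 lists of genes. In hyaluronan synthesis and its sugar precursors 12 of 13 genes were tested. With TGF-β 3 rose and 0 fell in Mock cells, and 3 rose and 0 fell in HSF2oe cells. With HSF2oe 2 rose and 3 fell without TGF-β, and 3 rose and 4 fell with it. Medians were near those of all genes, at 0.06, 0.08, 0.00 and -0.07 in that order. UAP1, which makes the activated sugar UDP-GlcNAc, rose with HSF2oe in TGF-β by 0.55 ± 0.10, while its relative UAP1L1 fell by 0.51 ± 0.09 (adjusted p = 0.00190 and 0.00211, edgeR quasi-likelihood test, Benjamini-Hochberg adjusted). In medium alone UAP1 also rose with HSF2oe, by 0.39, and UAP1L1 fell by 0.32 (adjusted p = 0.0208 and 0.0405, same edgeR test). These calls in medium alone were lost under 2 and 9 of 16 alternatives. PGM3, another enzyme of the UDP-GlcNAc route, rose with TGF-β by 0.56 ± 0.10 in Mock and by 0.50 in HSF2oe cells (adjusted p = 0.00129 and 0.0044, same edgeR test). The second PGM3 call was lost without HSF2oe control 1. Scaled by library totals alone the list had 1 rise and 3 falls with TGF-β in Mock cells, and 5 rises and 2 falls with HSF2oe in TGF-β. That scaling gave 2 rises and 1 fall with TGF-β in HSF2oe cells, and 3 rises and 1 fall with HSF2oe in medium alone. The list had 1 call with TGF-β in Mock cells without Mock control 1 or Mock TGF-β 2, and 1 in HSF2oe cells without HSF2oe control 1. With HSF2oe it had 1 call in medium alone without Mock control 2 or HSF2oe control 1 and 3 without Mock control 1, and in TGF-β 4 without Mock TGF-β 2 and 3 without HSF2oe TGF-β 1.

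Of the 11 genes of hyaluronan degradation 9 were tested. With TGF-β 2 rose and 0 fell in Mock cells and 1 rose and 0 fell in HSF2oe cells. HSF2oe lowered 1 and raised 0 without TGF-β, and lowered 5 and raised 0 with it. The median in this last comparison was -0.42, against -0.0032 for all genes. CEMIP2, the cell-surface relative of CEMIP, rose with TGF-β by 1.07 ± 0.11 in Mock and by 0.99 ± 0.11 in HSF2oe cells (adjusted p = 3.94e-05 and 0.000107, edgeR quasi-likelihood test, Benjamini-Hochberg adjusted). It differed by 0.05 ± 0.11 and -0.04 ± 0.11 with HSF2oe (adjusted p = 0.834 and 0.845, same edgeR test). In TGF-β, HSF2oe lowered the lysosomal enzyme genes HYAL1 by 1.11 ± 0.20 and HEXA by 0.51 ± 0.10 (adjusted p = 0.00219 and 0.00308, same edgeR test). Without single libraries the list still had 4 to 5 falls and 0 rises in that comparison, and scaled by totals alone 4 falls and 0 rises. With TGF-β that scaling gave 2 rises and 1 fall in Mock cells and 1 rise and 1 fall in HSF2oe cells.

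Of 8 receptor genes 5 were tested, LYVE1 and STAB1 being near 0 with at most 8 and 5 counts. With TGF-β 0 rose and 1 fell in Mock cells, and 0 moved in HSF2oe cells. With HSF2oe 2 rose and 0 fell without TGF-β, and 3 rose and 1 fell with it, where the median was 0.48. Beside CD44, HSF2oe in TGF-β raised TLR4, an innate immune receptor reported to respond to hyaluronan fragments, by 0.48 ± 0.13 and HMMR, which also serves the mitotic spindle, by 0.50 ± 0.11 (adjusted p = 0.0166 and 0.00561, edgeR quasi-likelihood test, Benjamini-Hochberg adjusted). LAYN, the layilin gene, fell by 0.63 ± 0.20 (adjusted p = 0.0411, same edgeR test). These calls rested on single libraries. HMMR was lost without Mock TGF-β 2 (0.45, adjusted p = 0.0616), TLR4 without either Mock TGF-β library or HSF2oe TGF-β 1 (0.38, adjusted p = 0.126), and LAYN without Mock TGF-β 2 (-0.42, adjusted p = 0.308) or either HSF2oe TGF-β library (same edgeR test). Scaled by totals alone LAYN was not called either (-0.43, adjusted p = 0.106, same edgeR test), and the list then had 2 falls with TGF-β in Mock cells. Without Mock TGF-β 2 the list had 0 calls with HSF2oe in TGF-β, and without HSF2oe TGF-β 1 it had 1. TLR4 also rose with HSF2oe in medium alone, by 0.49 (adjusted p = 0.0198, same edgeR test). Without Mock control 2 or HSF2oe control 1 the list had 0 calls with HSF2oe in medium alone. The fall with TGF-β in Mock cells was lost without Mock control 2 or Mock TGF-β 2.

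Of 8 hyalectan and link protein genes only VCAN and HAPLN3 were tested, since ACAN, NCAN, BCAN and HAPLN1 had at most 7 counts in any library. HAPLN3, a link protein that fastens proteoglycans to hyaluronan, rose with TGF-β in Mock cells by 0.64 ± 0.14 and fell with HSF2oe by 0.75 ± 0.15 without and 0.88 ± 0.15 with TGF-β (adjusted p = 0.00846, 0.00664 and 0.00120, edgeR quasi-likelihood test, Benjamini-Hochberg adjusted). Of these, the fall in TGF-β held when any single library was left out. The rise was lost without Mock control 1 or Mock TGF-β 2 and with totals alone, at adjusted p up to 0.124, and the first fall without Mock control 2 or HSF2oe control 1, at adjusted p up to 0.0913 (same edgeR test). Of the 8 crosslinking genes TNFAIP6 and PTX3 were the 2 tested, with the values given above.

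Versican proteases and partners had 12 of 14 genes tested. With TGF-β 4 rose and 1 fell in Mock cells, and 3 rose and 1 fell in HSF2oe cells. With HSF2oe 0 rose and 2 fell without TGF-β, and 1 rose and 4 fell with it. ADAMTS15, a protease that can cleave versican, fell with TGF-β by 1.48 ± 0.18 in Mock and by 1.67 ± 0.19 in HSF2oe cells (adjusted p = 0.000126 and 9.04e-05, edgeR quasi-likelihood test, Benjamini-Hochberg adjusted). ADAMTS4, another protease of the list, went the other way, rising by 0.72 in Mock and 0.57 in HSF2oe cells (adjusted p = 0.00529 and 0.0286, same edgeR test). Its second call was lost under 4 of 16 alternatives. Over all libraries ADAMTS4 lay at 39.7 to 76.6 CPM and ADAMTS15 at 6.14 to 39.9 CPM. FBN1, encoding the microfibril protein fibrillin-1, rose with TGF-β in Mock cells by 0.99 ± 0.13 and was lower in HSF2oe than in Mock cells with TGF-β, by -0.70 ± 0.13 (adjusted p = 0.000243 and 0.00255, same edgeR test). It also rose with TGF-β in HSF2oe cells, by 0.55 (adjusted p = 0.0192, same edgeR test), a call lost under 3 of 16 alternatives. FBLN1, encoding fibulin-1, fell with HSF2oe by 0.66 ± 0.12 in TGF-β and by 0.48 in medium alone (adjusted p = 0.00252 and 0.0233, same edgeR test). FN1, encoding fibronectin, rose with TGF-β in Mock cells by 0.87 ± 0.14 (adjusted p = 0.000816, same edgeR test), a call that limma-trend on the deposited log2 values did not give (adjusted p = 0.0553). FN1 also rose with TGF-β in HSF2oe cells, by 0.57 (adjusted p = 0.0195, same edgeR test), a call lost under 5 of 16 alternatives. Scaled by totals alone the list had 3 rises and 4 falls with TGF-β in Mock cells, and 3 rises and 4 falls with HSF2oe in TGF-β. That scaling gave 1 rise and 2 falls with TGF-β in HSF2oe cells, and 1 rise and 2 falls with HSF2oe in medium alone. All 3 rises with TGF-β in HSF2oe cells were lost without HSF2oe control 2, leaving 1 fall, or without HSF2oe TGF-β 1, leaving 3 falls. When HSF2oe control 1 was left out there were 2 rises. With HSF2oe in TGF-β the list had 2 rises and 2 falls without Mock TGF-β 1, 3 rises and 2 falls without HSF2oe TGF-β 2, 0 rises and 3 falls without Mock TGF-β 2, and 0 rises and 4 falls without HSF2oe TGF-β 1. Its 2 falls with HSF2oe in medium alone were both lost without Mock control 2 or HSF2oe control 1, and 1 was lost without either other library compared.

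The enzymes that build chondroitin sulfate, the sugar chains carried by versican, moved with TGF-β in larger number: of 20 listed genes 19 were tested, and 12 rose and 1 fell in Mock cells, against 7.32% and 6.5% of all tested genes. The median was 0.44. In HSF2oe cells 6 rose and 1 fell, with a median of 0.21. With HSF2oe 1 rose and 3 fell without TGF-β, and 0 rose and 7 fell with it, at medians of -0.16 and -0.27. XYLT1, the xylosyltransferase that starts the chain, rose with TGF-β by 1.73 ± 0.13 in Mock and 1.65 ± 0.13 in HSF2oe cells, and the chondroitin 4-O-sulfotransferase gene CHST11 by 1.99 ± 0.21 and 1.92 ± 0.20 (adjusted p = 2.22e-06, 5.48e-06, 3.5e-05 and 4.82e-05, edgeR quasi-likelihood test, Benjamini-Hochberg adjusted). CHSY3, a chain-lengthening synthase, rose with TGF-β in Mock cells by 1.43 ± 0.20 and fell with HSF2oe in TGF-β by 1.28 ± 0.20 (adjusted p = 0.000339 and 0.000857, same edgeR test). It also rose with TGF-β in HSF2oe cells by 0.99 and fell with HSF2oe in medium alone by 0.84 (adjusted p = 0.0106 and 0.0218, same edgeR test). CSGALNACT1, which adds the first N-acetylgalactosamine, went the other way with TGF-β, falling by 1.16 ± 0.17 in Mock and 1.11 ± 0.17 in HSF2oe cells (adjusted p = 0.000565 and 0.00110, same edgeR test). Of these named calls, those of XYLT1, CHST11 and CSGALNACT1 held without any single library. So did the CHSY3 rise with TGF-β in Mock cells and its fall with HSF2oe in TGF-β. The CHSY3 rise in HSF2oe cells was lost without HSF2oe control 1. Its fall in medium alone was lost without Mock control 2 or HSF2oe control 1. The counts were less steady. In Mock cells 5 rises were left without Mock control 1 or Mock TGF-β 2, and in HSF2oe cells 2 when HSF2oe control 1 was left out and 3 when HSF2oe TGF-β 1 was. With HSF2oe, 4 falls were left in TGF-β without Mock TGF-β 2 or HSF2oe TGF-β 2, and 0 in medium alone without Mock control 2 or HSF2oe control 1. There were 4 rises and 2 falls with TGF-β in Mock cells when scaled by totals alone, where the median of all genes moved by -0.27. That scaling gave 3 rises and 3 falls with TGF-β in HSF2oe cells. With HSF2oe it gave 1 rise and 2 falls in medium alone, and 2 rises and 4 falls in TGF-β.

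Of 11 CD44 partners, sheddases and splicing regulators 8 were tested. With TGF-β 2 rose and 0 fell in Mock cells, and 2 rose and 0 fell in HSF2oe cells. With HSF2oe 0 rose and 1 fell without TGF-β, and 1 rose and 1 fell with it. ADAM10, a sheddase of CD44, fell with HSF2oe in TGF-β by 0.55 ± 0.10, and SPP1, encoding the CD44 ligand osteopontin, rose by 1.15 ± 0.28, with low levels of 1.43 to 4.53 CPM over all libraries (adjusted p = 0.00184 and 0.0109, edgeR quasi-likelihood test, Benjamini-Hochberg adjusted). The SPP1 call was lost without Mock TGF-β 1 (0.93, adjusted p = 0.0691) or HSF2oe TGF-β 1 (1.06, adjusted p = 0.0666, same edgeR test). The fall in medium alone was lost without any 1 of the 4 libraries compared. The rises with TGF-β went to 0 without Mock control 1 or Mock TGF-β 2 and to 1 without Mock TGF-β 1 in Mock cells, and to 1 without either HSF2oe control library or HSF2oe TGF-β 1 in HSF2oe cells. Scaled by totals alone this list had 0 rises and 2 falls with TGF-β in Mock cells and 4 rises and 1 fall with HSF2oe in TGF-β. By that scaling it also had 0 rises and 1 fall with TGF-β in HSF2oe cells, and 1 rise and 0 falls with HSF2oe in medium alone.

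**Figure D4:**
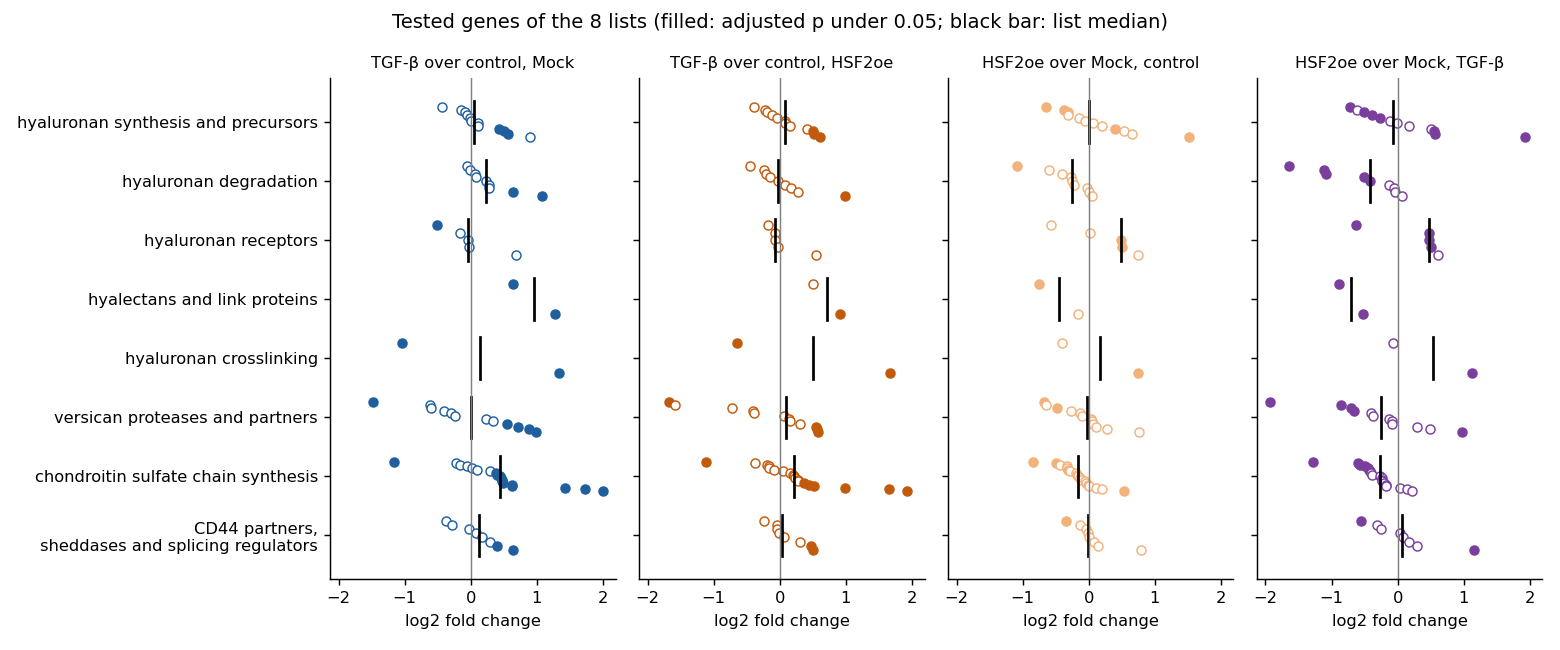
Log2 fold changes (horizontal axis) of all tested genes of the 8 lists in the 4 comparisons; each point is a gene, filled where the adjusted p was under 0.05, and the black bar is the list's median. Chondroitin sulfate genes lie mostly to the right with TGF-β in Mock cells (12 rises, 1 fall), and degradation genes mostly to the left with HSF2oe in TGF-β (5 falls, 0 rises).

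For each of the 8 genes, the tested genes with the most similar profile were found by Pearson's r of log2 CPM over the 8 libraries among 11676 genes, as a description in which libraries and scaling are shared. VCAN was most like FN1 (r = 0.996), WNT5A (0.991) and ARHGEF40 (0.989). TNFAIP6 was most like SDC1 (0.998), RNF150 (0.996) and SOX4 (0.993). CEMIP was most like HSPG2 (0.993), LAMB2 (0.990) and PLEKHA2 (0.990), of which HSPG2 and LAMB2 encode basement membrane proteins. HAS2 was most like ZNF707 and NUP153 (both 0.996), and CD44 was most like PPP1R15A (0.994), with ZNF707 (0.993) in its list too. PTX3 was most like C1orf112 (0.995), SUZ12 (0.993) and ARHGAP11A (0.993). HYAL2 and HAS3 had weaker best matches, ZNF532 (0.965) and AGER (0.947, among 11677 genes). Among the 8 genes themselves HAS2 and CD44 were the most alike (r = 0.985), VCAN and TNFAIP6 had 0.906, and HAS2 and CEMIP had -0.908.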

How the data were processed

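Polyadenylated RNA was sequenced in 8 libraries. Per the file headers, the authors ran featureCounts 2.0.1 on read pairs to make the deposited gene counts, with GENCODE release 38 as annotation and no strand option. The labels name a stranded kit. The submitters' processing notes list STAR 2.7.9a, Subread 2.0.1 and edgeR 3.34.1. Deposited log2 CPM values cover 13169 genes, all 8 genes studied among them, which lay within 0.0288 of values recomputed with a prior count of 2. Other columns of the deposited tables hold gene identifiers, lengths and positions. Counts were tested in edgeR 4.0.16 (R 4.3.3): filterByExpr by group, TMM scaling, a quasi-likelihood fit with 4 group means over all 8 libraries, and Benjamini-Hochberg adjustment over 16008 genes with a threshold of 0.05. The biological coefficient of variation was 9.91%. Each standard error was derived from the fold change and its F statistic (log2 change over root F), and CPM use TMM-adjusted totals. A count of 0 would allow up to 3 counts for counting error only. By library totals without TMM factors this is 0.0874 to 0.172 CPM. Within a group, the chi-square per degree of freedom between both libraries was 12.5 to 26.8, above sampling noise. All 8 genes are named, with at most 4 genes a list by smallest p, and ADAMTS4 besides. The genes, lists and comparisons were chosen with earlier results of these data known. Alternatives were RLE size factors, totals alone, no filter, a stricter filter (CPM of 1 in 2 libraries), DESeq2 1.42.0, limma 3.58.1 on the deposited log2 values, the 4 compared libraries alone, a replicate block, and leaving out each library. The fitting script was tested on simulated data. The result of 1 gene checked for the TGF-β treatment is not reported here.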

Additional observations from a re-analysis of the deposited data

How the results depend on the processing

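Of 16 calls on the 8 genes, 11 held under every alternative run and none reversed; the other 5 are given with their values in the report. Of 24 values that did not pass, 2 passed under some alternative: HAS2 with TGF-β in Mock cells, and TNFAIP6 with HSF2oe without TGF-β under the replicate block (-0.41, adjusted p = 0.0456, edgeR). Scaling by library totals alone moved the median of all genes by -0.27, -0.17, 0.09 and 0.19 in the 4 comparisons (TGF-β in Mock, TGF-β in HSF2oe, HSF2oe without and with TGF-β) and by 0.10 in the difference. Under it the sign turned for HYAL2 with TGF-β in Mock cells (-0.19) and with HSF2oe without TGF-β (0.0665), CEMIP with TGF-β in HSF2oe cells (-0.0843), TNFAIP6 with HSF2oe in TGF-β (0.13) and the CD44 difference (0.0666), none of them called. Totals alone called 4493 genes for TGF-β in Mock and 2045 in HSF2oe cells.

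The replicate block called 3350 genes for TGF-β in Mock cells, 2366 in HSF2oe cells, 3614 for HSF2oe without TGF-β and 78 for the difference. What same-numbered libraries share besides the number was not tested, and their deviations from the group means correlated by 0.0498 to 0.163. For the difference, 83 genes passed without the low-count filter and 23 in DESeq2. Without single libraries the genes called ran from 1143 to 2266, 673 to 1334, 368 to 1993, 1509 to 3331 and 0 to 0 in the same order with the difference last, and the calls on the 8 genes from 4 to 4, 2 to 3, 2 to 4, 3 to 5 and 0 to 0. In these fits the lone library of a group is assumed to vary like the other groups. Uncalled values whose sign turned ran, for HSF2oe without TGF-β, from -0.32 to 0.0121 (VCAN) and -0.0798 to 0.033 (HYAL2); for HSF2oe in TGF-β, from -0.0089 to 0.16 (HYAL2) and -0.21 to 0.10 (TNFAIP6); for TGF-β in Mock cells, from -0.0179 to 0.15 (HYAL2) and -0.10 to 0.0094 (CD44). For TGF-β in HSF2oe cells they ran from -0.21 to 0.0649 (CD44), -0.57 to 0.36 (HAS2) and -0.0754 to 0.25 (CEMIP), and for the difference from -0.16 to 0.11 (CD44) and -0.12 to 0.80 (HAS2). Of 512 list counts under alternatives, 79 moved over 1.5 times, 54 of them without a library. The cause of these shifts was not tested. The 2 libraries a group and the low counts of HAS3 limit what can be told.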
